A study of Mus musculus with 3 samples.

Results

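The regions described here are 544 NBS1 peaks that were called in both mouse pre-B cell lines of the study and that did not coincide with a peak of the input library. NBS1 works together with MRE11 and RAD50 in a complex that recognises broken DNA ends and helps to activate the kinase ATM. In developing B cells double-strand breaks are made by RAG1/2, the recombinase that cuts the antigen receptor genes, and the study's title asks about breaks of this kind outside the immunoglobulin loci. Chromatin immunoprecipitation followed by sequencing (ChIP-seq) finds stretches of DNA crosslinked to a protein, and an input library, sequenced without antibody selection, shows stretches that gain reads for other reasons.

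There were 3 groups, each of 1 library: ChIP for NBS1 from AH2, the same from R2K.Artm, and input from AH2. Both lines are pre-B cells transformed by v-Abl, a viral kinase oncogene that keeps cells dividing at an early B cell stage. The labels state neither a genotype nor a treatment for either line, nor whether a line is a single clone, and an input of R2K.Artm was not used here. With 1 library a group no value below has a replicate error and no test between groups was run.

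The members were chosen from the deposited AH2 NBS1 peak list. A peak was taken if it shared at least 1 base with an R2K.Artm NBS1 peak and none with an AH2 input peak. Chromosomes X, Y and M, unplaced sequences, starts below 5 Mb, 4 Mb around the immunoglobulin heavy chain locus on chromosome 12 and 4 Mb around the kappa light chain locus on chromosome 6 were left out. These exclusions left 4351 of the 5201 AH2 NBS1 peaks, of which 544 were members, 12.5% (95% Wilson interval 11.6 to 13.5%, covering counting error only). Of the other 3807 peaks, 779 overlapped both R2K.Artm NBS1 and input, 313 overlapped input only and 2715 overlapped neither. Over all 4351 peaks the share with an R2K.Artm NBS1 overlap was 30.4%, and over the 3259 without an input overlap it was 16.7%, which is the members' own share. Membership was set by these peak calls, so the counts and the scores behind them are descriptions. Positions are in mouse build mm9. No sequence or gene annotation of that build was used here, so each member is identified by its position alone.

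The score of a peak is the authors' own, written by their peak caller, with a minimum of 50 in each list. It is used below to order peaks within a list, and AH2 and R2K.Artm scores stand side by side without a ratio because neither the depth of the libraries nor the control used for a call is known here. The members' AH2 NBS1 scores ran from 50.0 to 498, with a median of 88.0 and the middle 50% between 66.3 and 123. The R2K.Artm NBS1 scores of the overlapping peaks ran from 50.1 to 419, with a median of 74.9 and the middle 50% between 59.7 and 97.5. Most members were therefore of modest score in both lines. A score of at least 100 was reached in AH2 by 215 members, in R2K.Artm by 124 and in both by 76, while 281 were below 100 in both. Over all 4351 AH2 NBS1 peaks, 1048 reached 100 in AH2. The same limit need not mean the same enrichment in the 2 lists. Across the 544 members the 2 scores had a Spearman correlation of 0.35, given as a description of points that share the same 2 libraries.

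**Figure D1:**
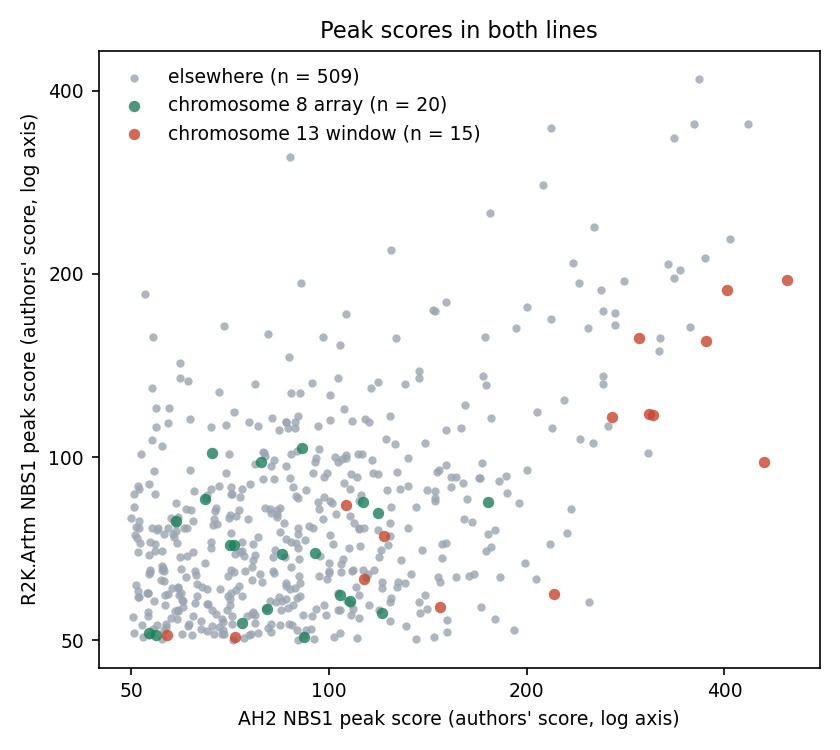
Authors' peak score of each of the 544 members in AH2 NBS1 (x axis) and R2K.Artm NBS1 (y axis), both on log axes, 1 point a peak. The 15 peaks of the chromosome 13 window include the highest AH2 score, 498, and the 20 peaks of the chromosome 8 run lie at 174 or below in AH2 and at 104 or below in R2K.Artm.

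The 100 highest-scoring of the 4351 AH2 NBS1 peaks contained no member. The highest-scoring member ranked 150, and peaks shared with both R2K.Artm and input reached a score of 3104. The median AH2 score was 167 for the peaks in both lines and input, 70.8 for peaks shared with input only and 58.4 for peaks found in neither other list. The members' median of 88.0 was thus below that of the peaks in both lines and input and above those of the other 2 classes. Among AH2 NBS1 peaks without an input overlap, members made up 6.20% (5.12 to 7.49%) at scores of 50 to 60, 28.2% (23.9 to 33.0%) at 80 to 100 and 90.6% (79.7 to 95.9%) at 200 or more, which is 48 of 53 peaks. Of the AH2-only peaks, those in neither other list, 5 scored 200 or more. Seen from the R2K.Artm list, largely the same overlaps gave a similar order, which is not a second observation. Of its input-free peaks, 142 of 935 at scores of 50 to 60 (15.2%) and all 14 at 200 or more overlapped an AH2 NBS1 peak. The rise was uneven, with 74.4% at 100 to 125 and 68.8% at 125 to 150.

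**Figure D2:**
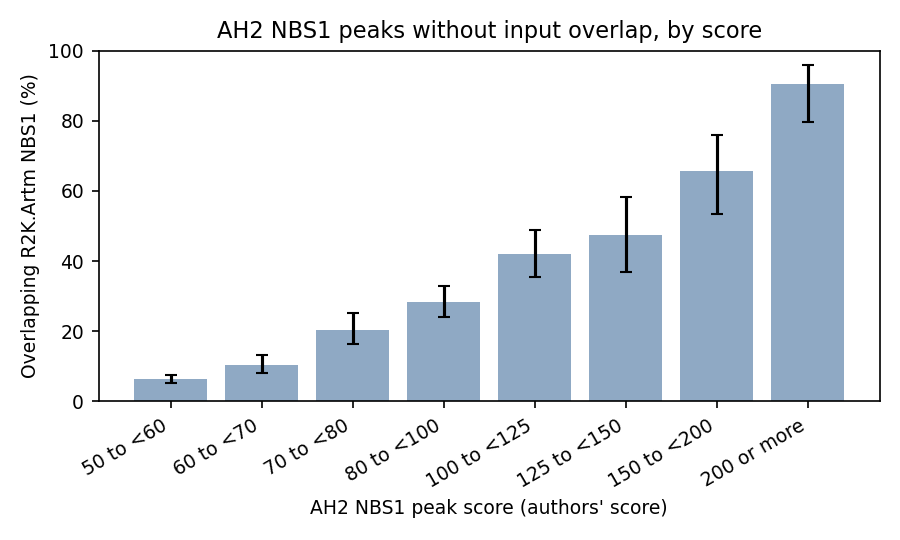
Percent of AH2 NBS1 peaks without input overlap that overlapped an R2K.Artm NBS1 peak (y axis), by the authors' AH2 NBS1 score (x axis). Bars show the share and lines its 95% Wilson interval; the share was 6.20% in the lowest class and 90.6% in the highest.

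The strongest members in both lines together were single sharp peaks on several chromosomes. The peak chr14:37669136-37669205, 70 bp wide, scored 434 in AH2 and 353 in R2K.Artm, and the centres of the 2 calls were 3 bp apart. The peak chr2:125973617-125973744 scored 366 in AH2 and had the highest R2K.Artm score of all members, 419. The peak chr9:102030185-102030320 scored 360 and 353. These 3 were among the 10 highest members in each line, and 38843 bp or more separated them from the nearest input peak.

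Other members high in both lists followed closely. The peak chr14:103863816-103864102 scored 407 in AH2 and 228 in R2K.Artm and had another member 93 bp away. The peak chr5:114623089-114623171 scored 334.7 in AH2 and 335.16 in R2K.Artm. The peak chr10:100852961-100853145 scored 374 and 213, with centres 2 bp apart. Together 12 members reached 200 in both lists, and none of the 12 lay in either of the dense places described below. Also among the 10 smallest sums of the 2 ranks were chr4:70179487-70179792, with scores of 342 and 203, and chr13:58541204-58541301, with 328 and 208.

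The order of the members differed between the lines. The peak chr13:23622211-23622295 had the second AH2 score of all members, 460, and an R2K.Artm score of 98.3, rank 132. The peak chr3:90279725-90279875 scored 355 in AH2, rank 10, and 164 in R2K.Artm, rank 34. In the other direction chr1:192944959-192945061 scored 311 in R2K.Artm, rank 6 among the members, and 87.2 in AH2, rank 280. That peak lay 33 bp from an AH2 input peak, so it was a member by a narrow margin. Its R2K.Artm peak, chr1:192944797-192945067, itself overlapped an AH2 input peak, so the score of 311 is not that of an input-free peak. The peaks chr2:104944404-104944535 (218 in AH2, 347 in R2K.Artm), chr6:131327552-131327673 (212 and 280), chr7:52879058-52879191 (176 and 252) and chr6:32346899-32347071 (253 and 239) completed the 10 highest R2K.Artm scores, and of these 4 all but the chromosome 7 peak scored above 200 in both lists. Whether these differences exceed the variation between libraries of 1 line cannot be told without replicates.

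The calls in the 2 lines lay close together, which is largely fixed, because members were chosen by overlap and the peaks are narrow. Peak centres were a median of 19.5 bp apart, 329 members (60.5%, 56.3 to 64.5%) had centres within 25 bp and 494 (90.8%, 88.1 to 93.0%) within 50 bp. The rule asked for 1 shared base, yet no member shared fewer than 48, and a median of 91.0% of the AH2 peak was covered. Of the members, 212 lay wholly inside the R2K.Artm peak and 70 wholly contained it. No pair of intervals was identical, which allows up to 0.551% of members (3 counts of the total). Among these overlapping peaks the signed offset had a median of -2.75 bp, AH2 minus R2K.Artm. The largest centre distance was 174.5 bp, at chr11:7006107-7006320. There 2 AH2 peaks, 20 bp apart, fell on 1 R2K.Artm peak, as also happened at chr1:11966636-11966883. The 544 members therefore corresponded to 542 R2K.Artm peaks.

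**Figure D3:**
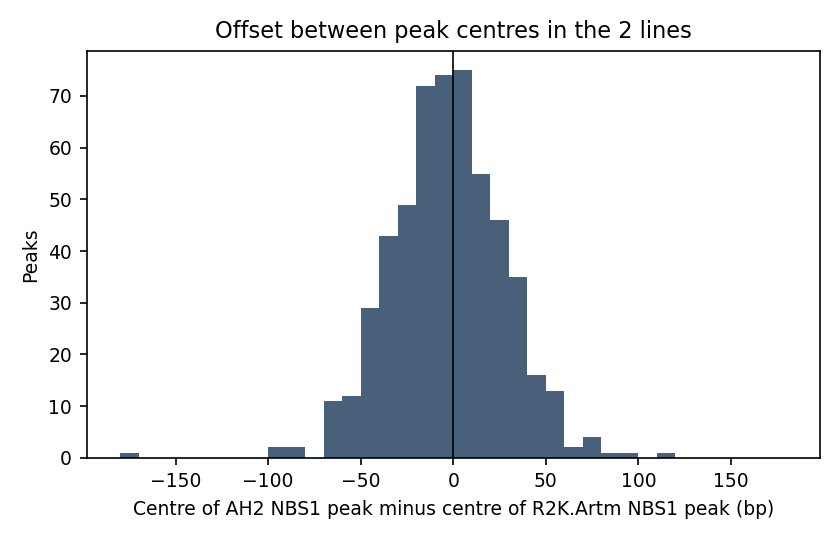
Distance between the peak centres of the 2 lines for the 544 members (x axis, bp, AH2 NBS1 minus R2K.Artm NBS1) as a histogram of the number of peaks (y axis) in 10 bp steps. The distances centre near 0, with 494 members within 50 bp. Members were chosen by overlap, which largely limits these distances.

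At the edge of the rule there were close cases on both the R2K.Artm side and the input side. The members with the fewest shared bases were chr2:49644588-49644637 (48 bases), chr15:73227980-73228050 (49) and chr13:9238084-9238133 (50). Of the AH2 NBS1 peaks that touched neither input nor R2K.Artm, 6 missed an R2K.Artm peak by up to 100 bp, the nearest being chr16:60993040-60993161 (9 bp), chr8:9946741-9946869 (16 bp) and chr6:47725332-47725760 (31 bp). The members nearest to input were chr4:90059999-90060120 (26 bp away), chr11:115274576-115274711 (30 bp) and chr5:33080651-33080829 (31 bp). Just outside were chr11:17121429-17121516, which shared 1 base with an input peak, chr8:126071139-126071237 with 10 and chr11:78945236-78945347 with 11.

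Members and AH2-only peaks had similar distances to input, with overlapping intervals. An input peak lay within 1 kb of 17 members (3.13%, 1.96 to 4.95%) and of 2.36% (1.85 to 2.999%) of the 2715 AH2 NBS1 peaks in neither other list. Within 10 kb the shares were 10.8% (8.502 to 13.7%) and 10.8% (9.71 to 12.1%), and the median distances were 80.3 and 85.9 kb. Of the R2K.Artm peaks under the members, 2 overlapped an AH2 input peak, among them the one at chr1:192944959-192945061 named above.

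Members were narrow. Their median width was 115 bp in AH2 and 134 bp in R2K.Artm, and 530 of 544 (97.4%, 95.7 to 98.5%) were narrower in AH2 than 250 bp, the average fragment length stated for the sonicated chromatin. The widest was chr8:72098555-72099327, 773 bp in AH2 and 809 bp in R2K.Artm, with low scores of 62.5 and 57.5. Width and score were nearly unrelated across members, with a Spearman correlation of -0.07 in AH2 and -0.17 in R2K.Artm. The median width was similar in the AH2-only peaks, 116 bp, and higher in peaks shared with both R2K.Artm and input, 126 bp. Of the AH2-only peaks 98.7% (98.3 to 99.1%) were under 250 bp. The share was 87.9% (85.5 to 90.0%) in both lines and input and 92.0% (88.5 to 94.5%) with input only.

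Along the genome most members stood alone. Members fell on all 19 autosomes, 0.23 per Mb over the 2368 Mb that the lists span there. No other member lay within 10 kb for 504 of the 544, 20 members formed 10 pairs, and the remaining 20 formed 2 groups of 7 and 13, both on chromosome 8. Of the 454 1-Mb bins that held a member, 398 held 1, and only 3 held more than 3: the bin from 126 Mb of chromosome 8 with 20, and those from 23 and 22 Mb of chromosome 13 with 7 and 5. Another AH2 NBS1 peak of any kind lay within 10 kb of 73 members, 13.4% (10.8 to 16.5%), against 10.6% of all 4351 peaks. The share was 7.51% (6.58 to 8.57%) in the AH2-only peaks. It was 17.1% (14.6 to 19.9%) in both lines and input and 16.9% (13.2 to 21.5%) with input only. These shares include the chromosome 8 run described below, whose 41 AH2 NBS1 peaks, 20 of them members, all lie within 10 kb of another. The run thus supplied 20 of the 73 members with such a neighbour, and 41 of the 463 such peaks among all 4351. Shares without the run were not computed, so the difference between 13.4% and 10.6% is not read as a trait of the members.

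By chromosome, members made up the largest share of the input-free AH2 NBS1 peaks on chromosomes 13 (43 of 179, 24.02%, 18.3 to 30.8%) and 8 (48 of 207, 23.2%, 18.0 to 29.4%) and the smallest on chromosome 17 (11 of 123, 8.94%, 5.07 to 15.3%). The share over all autosomes was 16.7%. Outside the run on chromosome 8 and the window on chromosome 13 described next, these chromosomes had 16.8% (11.9 to 23.2%) and 20.3% (14.4 to 27.8%), with intervals that include the share over all autosomes. Together the 2 places held 35 members, 6.43% of all.

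The run on chromosome 8 was a regular series. The mouse 5S ribosomal RNA genes, which RNA polymerase III transcribes into the small RNA of the large ribosomal subunit, form a tandem array on this chromosome. Whether the run lies on that array was not checked, since no mm9 annotation was used. The stretch chr8:126062658-126147677, 85.0 kb long, was chosen because it held the largest group of members, so its count of members follows in part from that choice. It was extended over the AH2 NBS1 peaks that follow each other there at under 10 kb. It had 41 AH2 NBS1 peaks, 22 R2K.Artm NBS1 peaks and 3 AH2 input peaks. The AH2 peak centres were fitted by a constant step of 1696 bp, which divides the stretch into 51 units. Each of the 41 AH2 peaks fell in a unit of its own, none more than 57.0 bp from the fitted position.

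The 20 members were among the 41 AH2 peaks through which the step was fitted, so their closeness to it follows largely from the fit. Between neighbouring members 10 of the 19 distances were 1 unit, between 1660 and 1744 bp, 5 were 2 units and 4 were longer. The 22 R2K.Artm peaks lay between -34.7 and 63.2 bp of the step fitted to the AH2 peaks, with a median distance of 14.9 bp. This closeness is largely fixed, because 21 of the 22 share a unit with an AH2 peak and the 20 under the members were chosen by their overlap. The 1 R2K.Artm peak in a unit without an AH2 peak lay 42.9 bp from the step. The centres of the 3 input peaks lay away from it, at -190, -203 and -800 bp from the nearest fitted position. The input peak at -190 bp still shared 10 bases with the AH2 NBS1 peak chr8:126071139-126071237. Of the 51 units 21 had a peak in both lines, 20 in AH2 only, 1 in R2K.Artm only and 9 in neither.

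Scores in the run were modest and did not separate the members from their neighbours. The 20 members scored 53.1 to 174 in AH2, with a median of 82.5, and 50.5 to 104 in R2K.Artm, with a median of 70.6. The highest in AH2, chr8:126083102-126083169, scored 174 there and 84.4 in R2K.Artm. The other 21 AH2 NBS1 peaks of the run scored 50.7 to 233, with a median of 95.4. The subtracted AH2 list, titled by the authors as AH2 NBS1 peaks after removal of R2K.Artm NBS1 and input, had 6 intervals in the run, all in units without an R2K.Artm peak. Where copies of a repeat are near-identical a read cannot be assigned to 1 of them, and how the authors' alignment treated such reads is not known here, so the units with a peak may not be the units that were bound.

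**Figure D4:**
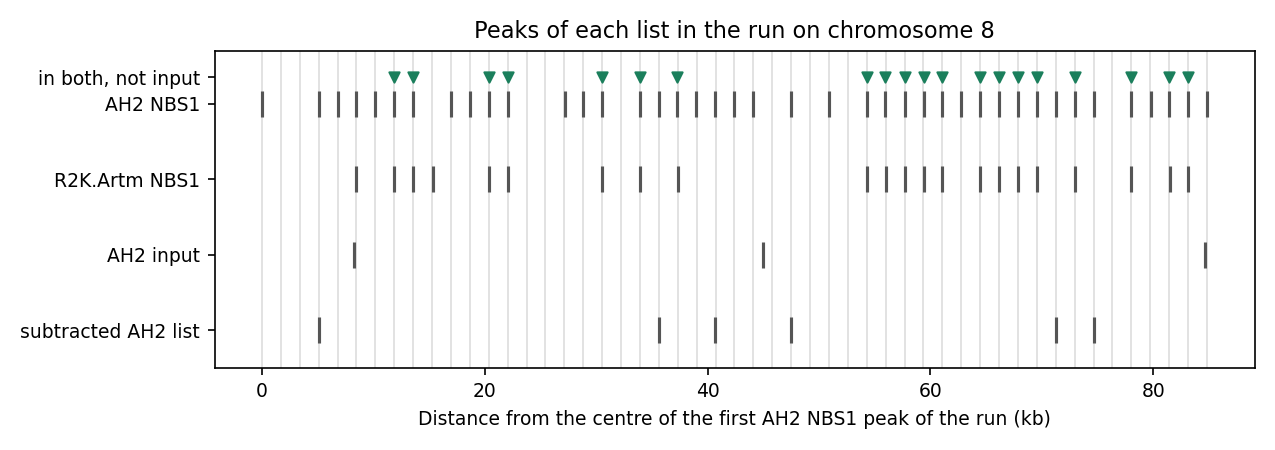
Peak centres of each list (rows, 1 tick a peak) along the run on chromosome 8, as distance in kb from the first AH2 NBS1 peak (x axis), with grey lines at the fitted step of 1696 bp and triangles over the 20 members. The ticks of both NBS1 rows sit on or near the grey lines, while the 3 input ticks lie off them, at the distances from the nearest line given above.

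The window from 21 to 24 Mb of chromosome 13 held members of high AH2 score. In the mouse this chromosome carries the largest cluster of replication-dependent histone genes, which supply histones during DNA replication, interspersed with many transfer RNA genes. The window was chosen with results of these data known, and as for chromosome 8 no annotation was used to place peaks on genes. It had 41 AH2 NBS1 peaks, 17 R2K.Artm NBS1 peaks and 16 AH2 input peaks. Of the 17 R2K.Artm peaks, 15 overlapped an AH2 peak, and the 15 AH2 peaks concerned were all members. No AH2 NBS1 peak of the window overlapped an input peak, although input peaks were present.

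The 15 members of the window scored 56.7 to 498 in AH2, with a median of 270, and 50.6 to 195 in R2K.Artm, with a median of 98.3. The 509 members outside both dense places had medians of 87.5 and 74.9. In AH2, 9 of the 15 scored 200 or more, and 7 were among the 20 highest AH2 scores of all 544 members. In R2K.Artm none reached 200, a score that only 14 of the 1735 R2K.Artm peaks without input overlap reached. There 1 of the 15 was among the 20 highest R2K.Artm scores of the members, and another ranked 21. Among the 50 highest scores of the members were 9 of the 15 in AH2 and 4 in R2K.Artm. The 26 other AH2 NBS1 peaks of the window, which overlapped neither other list, scored 53.4 to 178, with a median of 77.2.

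Within the window the members formed 2 stretches with 1370 kb between the nearest starts. The first stretch, chr13:21259946-22118494, held 8 members. The highest member of the whole set, chr13:22066890-22066979, lay here with 498 in AH2 and 195 in R2K.Artm, and its interval began at the same base in both lists. Also here were chr13:21802860-21802994, which scored 404 in AH2 and 188 in R2K.Artm, and chr13:22023036-22023182, which scored 375 and 155. The remaining 5 of the stretch scored between 72.0 and 220 in AH2 and between 50.6 and 83.5 in R2K.Artm.

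The second stretch, chr13:23488859-23622295, held the other 7. The highest in AH2 was chr13:23622211-23622295, already named, with 460 in AH2 against 98.3 in R2K.Artm. It was followed in AH2 by chr13:23591937-23592074 (312 and 117), chr13:23488859-23488991 (307 and 117.6), chr13:23538016-23538091 (296 and 157) and chr13:23609514-23609707 (270 and 116). The last 2, chr13:23492677-23492743 and chr13:23609072-23609154, scored 113 and 56.7 in AH2 and 63.1 and 51.0 in R2K.Artm. Unlike in the chromosome 8 run, distances between neighbours were uneven, from 5395 bp to 325 kb between starts in the first stretch and from 442 bp to 53.9 kb in the second.

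**Figure D5:**
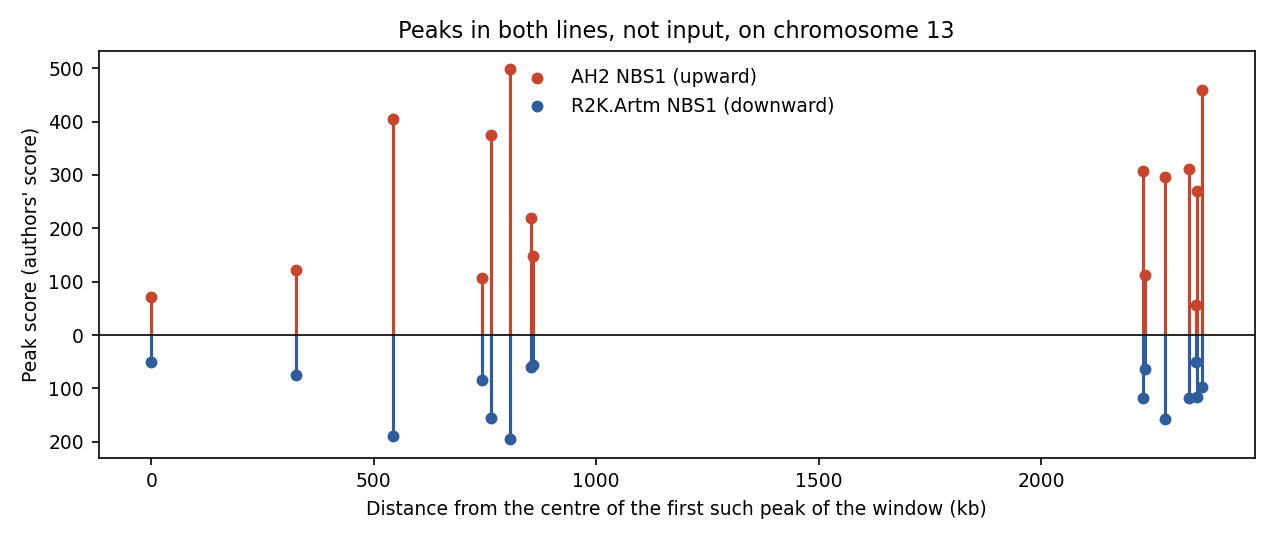
Authors' peak scores (y axis) of the 15 members in the window on chromosome 13, in AH2 NBS1 upward and in R2K.Artm NBS1 downward, against the distance in kb from the first of them (x axis). The members form 2 stretches, with 9 of the 15 at 200 or more in AH2 and none at 200 in R2K.Artm. Few R2K.Artm peaks without input overlap reached that score.

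Few members remained in the subtracted AH2 list. Of 544 members, 6 were in it, 1.10% (0.506 to 2.39%), against 18.6% of all 4351 AH2 NBS1 peaks and 27.4% (25.7 to 29.1%) of the AH2-only peaks. By its title the list had R2K.Artm NBS1 removed, so the low share is not an independent result, and how the removal was done is not stated. The 6 kept their exact AH2 intervals, scored 165 to 460 in the AH2 NBS1 list, 57.7 to 98.3 in R2K.Artm and 50.6 to 72.3 in the subtracted list. They were chr13:23622211-23622295, chr3:31585202-31585403, chr13:22112965-22113080, chr14:88724550-88724729, chr17:14136005-14136303 and chr3:9527786-9528129. All 6 thus stood high in AH2 and below 100 in R2K.Artm.

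Antigen receptor loci other than the excluded immunoglobulin regions held 3 members, all in 1 window. Windows were set in whole megabases of mm9 from general knowledge. With them, the T cell receptor alpha and delta window (chromosome 14, 52 to 56 Mb) had 3, in a stretch with 34 input peaks and, for NBS1, 12 AH2 and 6 R2K.Artm peaks. These were chr14:53720498-53720650, with scores of 162 in AH2 and 85.3 in R2K.Artm, chr14:52923593-52923722, with 116 and 130, and chr14:53248521-53248577, with 113 and 65.2. The first 2 of them lay 19987 and 537 bp from an input peak. The windows of the T cell receptor beta (chromosome 6, 40 to 42 Mb), T cell receptor gamma (chromosome 13, 19 to 20 Mb) and immunoglobulin lambda (chromosome 16, 19 to 20 Mb) loci held 0 of 544 members, which allows up to 0.551% in each. These windows had only 2, 3 and 3 AH2 NBS1 peaks in all, in that order, too few to read anything from the absence of members. In the excluded heavy and kappa chain regions no AH2 NBS1 peak met the overlap rule either.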

How the data were processed

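NBS1 ChIP libraries of AH2 and R2K.Artm and an AH2 input library were each represented by the peak lists the authors deposited, 4 in all. The submitters' processing notes name MACS 1.4.2, Bowtie and build mm9; Bowtie's version, any filters and the control of each call were not given in the sources consulted. Per the file headers each list holds MACS peaks, and the value of a peak is a score deposited by the authors, whose formula the headers do not state. Per the labels' protocols, chromatin was crosslinked in 1% formaldehyde for 5 min and 5 µg of antibody was used. Read depth is unknown.

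Intervals were joined in Python 3.11.15 (numpy 2.4.6, pandas 2.3.3), with 1 added to each deposited start for printing. Shares carry 95% Wilson intervals (scipy 1.17.1), for counting error only; neighbouring peaks are not independent. The join, checked on simulated data with 600 planted overlaps, found 603, as did a direct search. The step on chromosome 8 was a least-squares line through peak centres against unit number. Peaks named are the 10 highest in each line and by rank sum, groups of 3 or more, members in the subtracted list, and the 3 nearest each limit; those of the dense places, the widest, the largest centre distance and the T cell receptor members were named after their values were seen. Members, windows and lists were chosen with earlier results of these data known.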

Additional observations from a re-analysis of the deposited data

How the results depend on the processing

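No paired analysis was possible because there was 1 library a group, and leaving out a library was not possible either. Among 39 values under alternatives, for 7 results, 27 stayed within the 95% interval of the reported value (counts within 1.5 times) and 12 did not. With a score of at least 100 in both lists there were 76 members. They were 7.25% of the 1048 AH2 NBS1 peaks that reached 100 in AH2, whatever their R2K.Artm score. Of those 1048 peaks, 215 were members under the main rule. The 76 had median scores of 215 in AH2 and 151 in R2K.Artm and a median width of 129 bp. Of them 2.63% had another member within 10 kb and 0% were in the subtracted list. Fewer peaks and higher scores follow from that limit. With at least 50% of both intervals shared, members were 9.97% of AH2 NBS1 peaks and had a median width of 121.5 bp. Without members that had input within 10 kb, the share was 11.1%. Another member lay within 100 kb for 13.6%, and within 10 kb for 2.75% when the chromosome 8 run and the chromosome 13 window were left out, a choice made after seeing the data. Where no cause is given, the cause was not tested. The alternatives on gene starts, base composition and simple sequence repeats were not run, as they need the mm9 sequence or annotation. Absence of a peak does not show absence of NBS1.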

Other observations

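Before the position limits, 608 AH2 NBS1 peaks overlapped R2K.Artm NBS1 and not input. The 64 left out were 31 on chromosome X, 20 on unplaced sequences, 2 on chromosome Y and 11 that started below 5 Mb of an autosome. Their median AH2 scores were 88.1, 81.7, 71.4 and 72.0, and the highest was 459, in the last group.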
